A study of Drosophila melanogaster with 6 samples.

Results

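Oenocytes and fat body, the main lipid-handling cell types of the adult fly, were compared with each other in fed females. The nuclei were those that the authors' clustering placed in the cluster named adult oenocyte and in the cluster named fat body, taken from the 2 fed libraries only. They came to 1575 nuclei of 20150 in the fed libraries and 43027 in all 6 libraries. Of these, 184 were oenocyte nuclei (111 in fed library 1 and 73 in fed library 2) and 1391 were fat body nuclei (730 and 661). Each cluster was compared with the other inside the same library, across all genes.

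The series profiled single nuclei of Drosophila melanogaster that were fed or starved for 2 or 5 days, with 2 libraries per condition. The flies were females of the genotype PromE-gal4, Tub-gal80ts, in which PromE drives Gal4 in oenocytes and the heat-sensitive Gal80 holds Gal4 off at low temperature; the labels name no UAS transgene, and every library carried this same genotype. Crosses were kept at 18 °C, adults were gathered within 48 hours of emerging, held for 48 hours more at 18 °C and then moved to 29 °C, for 7 days in one label and 5 days in another. Nuclei of bodies without heads were stained with DRAQ7, sorted and run on the 10x Genomics 3′ platform. The sources do not say whether the 2 fed libraries came from separate flies, so the p-values measure the spread between 2 reactions, which may be technical.

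The fat body of insects combines storage and export. It keeps triacylglycerol in lipid droplets and glycogen, releases trehalose, the blood sugar of insects, and loads lipid onto lipophorin, the lipoprotein that carries it through the hemolymph. Oenocytes are large cells beneath the abdominal cuticle that make very-long-chain fatty acids and turn them into the hydrocarbons that waterproof the cuticle and serve as pheromones, and in larvae they also take up lipid released by the fat body during fasting. Both have been likened to parts of the vertebrate liver.

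Levels below are unique molecular identifiers (UMIs, each one captured RNA molecule) per 10000 UMIs of a cluster in a library, and where a pair of values is given the first is fed library 1 and the second fed library 2. The oenocyte sums held 629178 and 354921 UMIs and the fat body sums 3313469 and 2849977. The median nucleus had 5571 and 4062 UMIs in oenocytes and 4040 and 3884 in fat body. The cluster names were checked against markers. The 8 oenocyte markers summed to 309 and 280 in oenocytes against 21.3 and 22.1 in fat body, and the 8 measured fat body markers to 44.8 and 30.4 against 518 and 501. Among those markers, bond and Desat1 were not higher in oenocytes, and the larval storage genes Fbp2 and Lsp2 were near 0 in both. Of the markers of other cell types, the 6 of follicle cells and eggshell stood out, at 19.2 and 76.2 in oenocytes against 13.7 and 13.6 in fat body, with a median of 34.8 over the other clusters. The remaining 10 lists summed to between 0.0477 and 16.3 in oenocytes and between 0.0513 and 18.1 in fat body, with Act88F of muscle, He of hemocytes, repo of glia and sns of nephrocytes at 0 in oenocytes. Since the clusters were drawn from the expression of the same nuclei, genes that separate them differ in part by construction.

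Of 12925 genes measured, 7752 had a UMI in at least 10 nuclei of both fed libraries in one of the clusters and were tested (limma with library as a block, Benjamini-Hochberg adjusted p under 0.05). The levels of 2497 genes differed, which is 32.2% of those tested: 879 were higher in oenocytes (11.3%) and 1618 in fat body (20.9%). The 2 directions were not counted on equal terms, because there were many more fat body nuclei and 4957 genes passed the filter through the fat body alone. Among the 2719 genes that passed in both clusters the balance turned, with 724 higher in oenocytes (26.6%) and 537 in fat body (19.7%), together 46.4% of them. Of the 2795 genes that passed in oenocytes, 2719 also passed in fat body, so this set is nearly that of genes detected in oenocytes. It leaves out genes low in oenocytes, so the filter tilts its balance toward oenocytes and the turn is not a result. A gene that passed through 1 cluster alone was selected in part by its level there. All 76 that passed through oenocytes alone differed past the threshold, as did 1160 of the 4957 that passed through the fat body alone. The gene lists below were therefore counted over members that passed in both clusters and read against 26.6% and 19.7%, which carry the same tilt. List members low in oenocytes are left out of these counts. Named genes that passed through 1 cluster alone are given by their values, without a p-value for this contrast. Differences were often large: 95 genes were higher in oenocytes and 134 in fat body by at least 4 on the log2 scale. In 2495 of the 2497 genes the values of the clusters did not overlap, but the test used these same values, so this adds no support. Overlap among the other tested genes was not counted. Log2 differences are on the scale of log2(level + 0.05) throughout, so they understate the difference for genes near 0, and the median over all tested genes was -0.15.

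**Figure D1:**
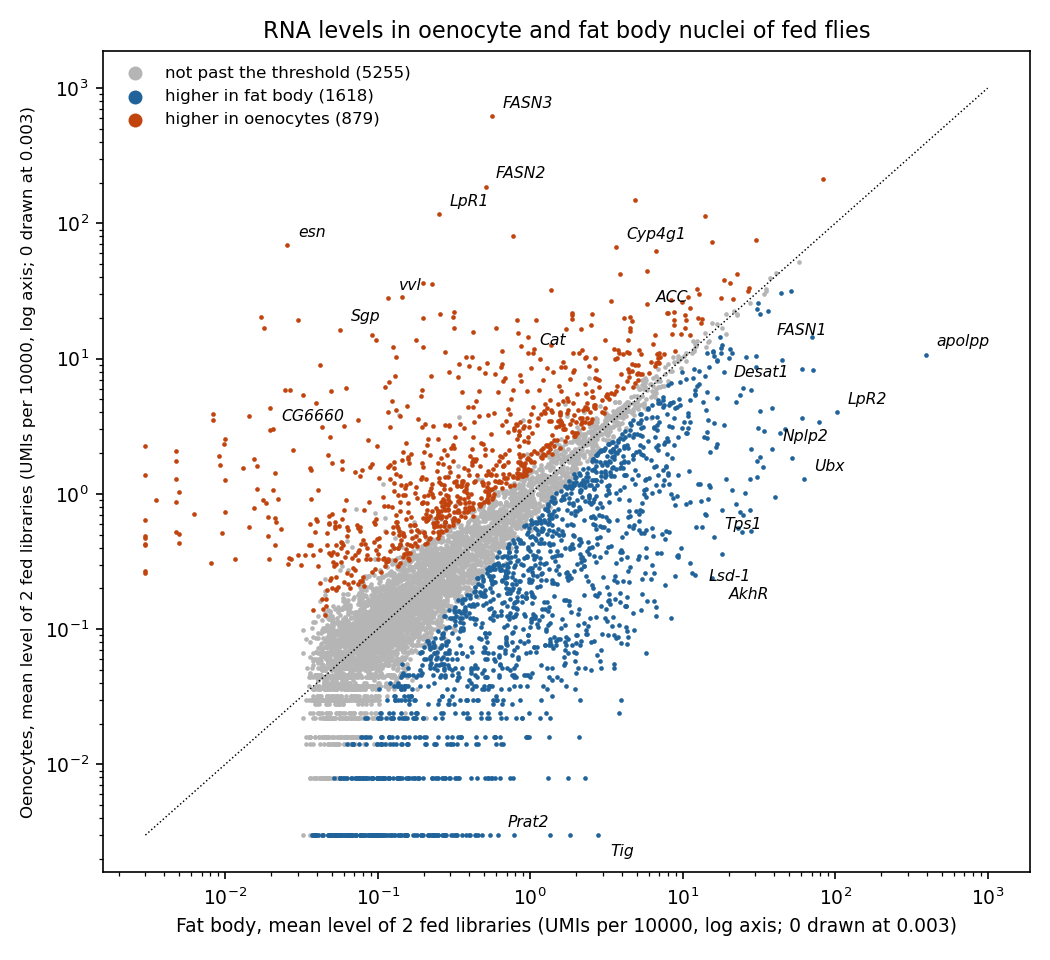
Mean level of each tested gene in fat body (horizontal) and oenocytes (vertical) over the 2 fed libraries, in UMIs per 10000 on log axes, colored by the limma call. FASN3, FASN2, LpR1 and esn sit far above the dotted line of equal levels, apolpp, Ubx and LpR2 far to its right, and FASN1, ACC and Desat1 close to it.

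The largest differences in favour of oenocytes included those of FASN3, FASN2 and LpR1. FASN3, a fatty acid synthase, stood at 682 and 557 in oenocytes and at 0.667 and 0.460 in fat body, so that this gene supplied 6.82% and 5.57% of all UMIs captured from oenocytes. Its mean level was 1100-fold higher (log2 9.99 ± 0.08 SE, adjusted p = 2.8e-13). esn (espinas), a LIM-domain gene, which passed the filter through oenocytes alone, had 66.7 and 70.6 against 0.0302 and 0.0211. LpR1, a lipophorin receptor, was at 126 and 108 against 0.260 and 0.249. The 12 largest also held the antisense RNA asRNA:CR44035 (22.3 and 18.5; log2 8.26), which lies antisense to the elongase gene CG8534, the heparan sulfatase Sulf1 (30.2 and 27.0; log2 7.23) and bab2 (36.6 and 34.3; log2 7.06), which encodes a BTB-domain transcription factor. klg, at 20.7 and 17.9 (log2 7.93), contains the elongase gene CG6660 on its own strand, so reads of this pair may have been shared between them. CG5973 (38.2 and 34.4; log2 7.22) overlaps santa-maria on the other strand. santa-maria passed the filter through the fat body alone, with a UMI in 5 and 2 oenocyte nuclei and 451 and 411 fat body nuclei. Its log2 difference was -4.67 without nuclei that held RNA of another type, a setting added after the data were seen.

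The 12 largest differences in favour of fat body included Tig, AkhR, Lst and Ubx, all of which passed the filter through the fat body alone. Tig, which encodes the matrix protein Tiggrin, had 2.57 and 2.97 in fat body and no UMI in oenocytes of either library, at least 90.9-fold lower when the oenocytes are set at 3 UMIs over both libraries. AkhR, the receptor for adipokinetic hormone, the insect counterpart of glucagon, was at 15.9 and 15.3 in fat body and 0.254 and 0.225 in oenocytes (log2 -5.76 ± 0.23 SE), where 4 nuclei in each library had a UMI. Lst, which encodes limostatin, a hormone that lowers insulin release, was at 3.78 and 3.92 against 0.0477 and 0. The Hox gene Ubx stood at 63.9 and 60.8 against 0.858 and 1.72 (log2 -5.62). For AkhR, Lst and Ubx no value of one cluster reached those of the other, which their choice as largest differences had fixed in advance.

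Enzyme groups were described by lists of genes, each with the number of members called and its median over those that passed in both clusters, without a test of the list. In the fatty acid synthesis list 13 of 14 tested members passed in both, of which 4 were higher in oenocytes and 3 in fat body, with a median log2 difference of 0.35. The fatty acid synthases divided sharply: FASN3 and FASN2 were oenocyte genes, while FASN1 was present at similar levels in both. FASN2 was at 195 and 179 in oenocytes and 0.501 and 0.519 in fat body (log2 8.38 ± 0.11 SE, adjusted p = 9.7e-12). FASN1 was at 22.4 and 20.2 in oenocytes and 32.2 and 31.7 in fat body, a difference of -0.59 ± 0.08 SE (adjusted p = 0.00019) that did not pass the threshold when mean deposited values were compared in place of summed UMIs (adjusted p = 0.096). FASN2 (chromosome 2L, 3043947 to 3056143 in BDGP6) and FASN1 (2L, 3056598 to 3068177) are neighbours on the same strand, 454 bases apart with no gene between them, and FASN3 lies on 3L (25752859 to 25762779).

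The enzymes that feed the synthases differed far less than FASN2 and FASN3. ACC, acetyl-CoA carboxylase, which makes malonyl-CoA, was at 20.7 and 18.8 in oenocytes and 13.5 and 13.3 in fat body (log2 0.55, adjusted p = 0.00085). ATPCL, ATP citrate lyase, was at 4.04 and 3.83 against 3.30 and 2.87 and did not pass the test (adjusted p = 0.098). The sources of NADPH differed by enzyme: Zw, glucose-6-phosphate dehydrogenase, was higher in oenocytes (0.906 and 0.620 against 0.293 and 0.288; log2 1.23), and Men, malic enzyme, in fat body (14.6 and 13.9 against 3.99 and 4.37; log2 -1.76). AcCoAS, which activates acetate, was also higher in fat body (log2 -0.84).

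**Figure D2:**
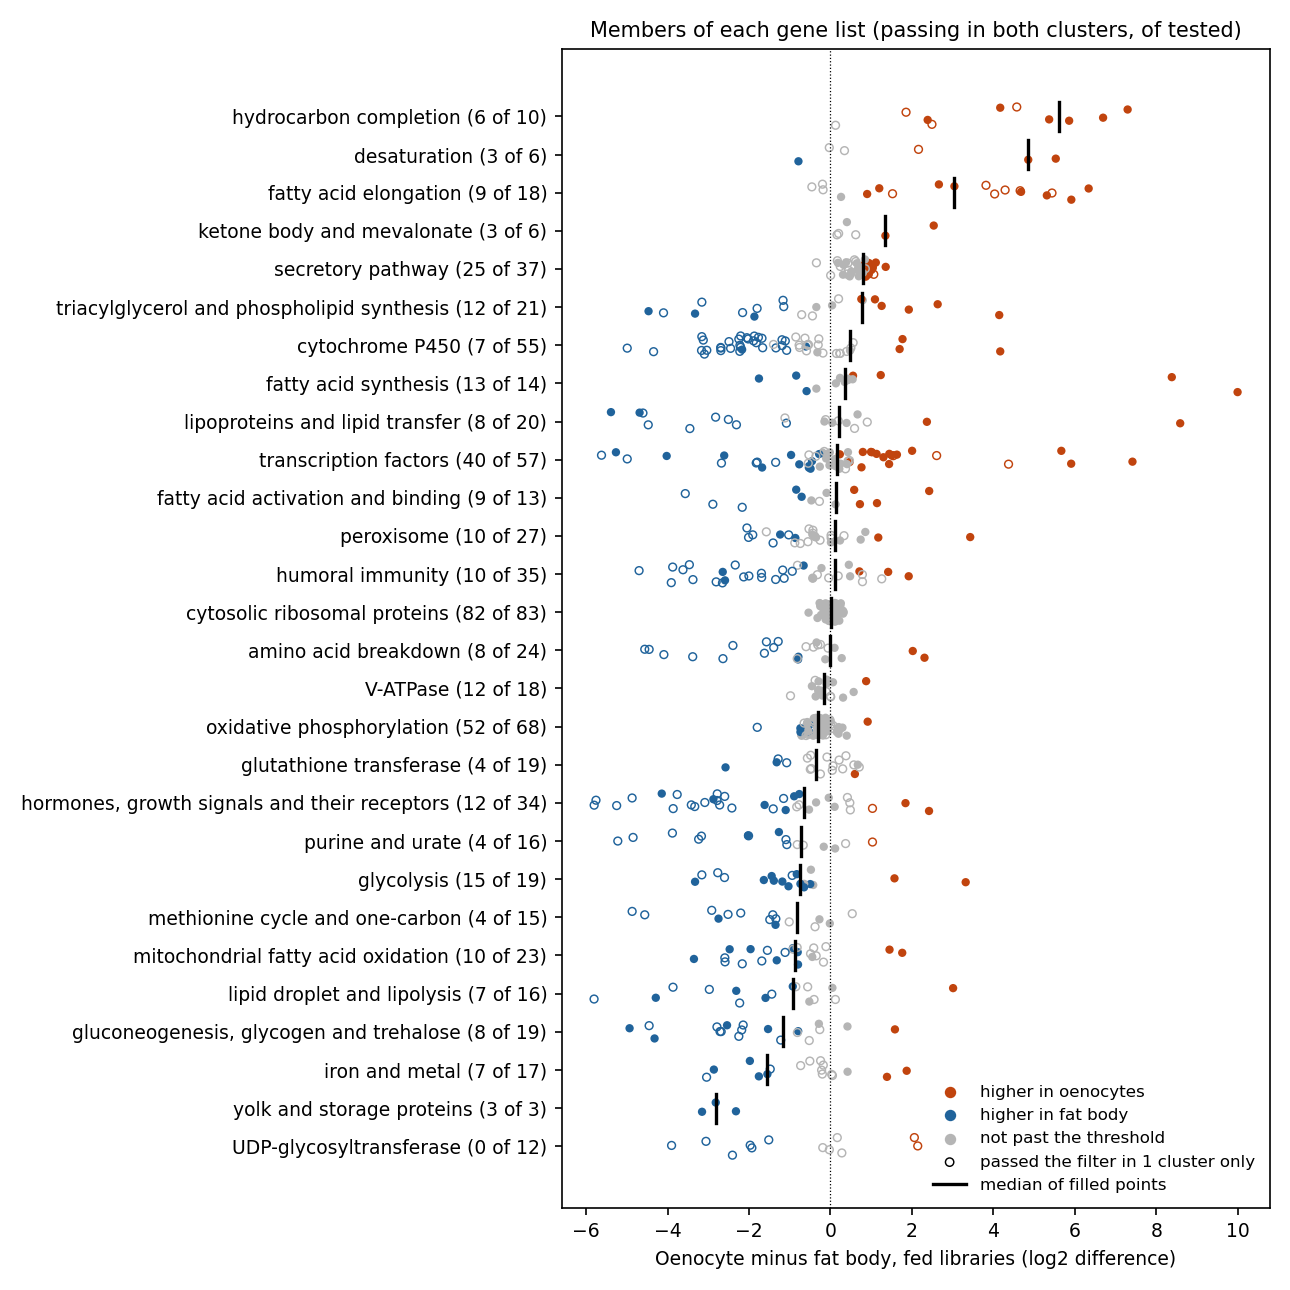
Log2 difference (oenocyte minus fat body, fed libraries) of each tested member of the 28 gene lists, 1 point per gene, colored by the limma call; open points passed the filter in 1 cluster only, and a black bar marks the median of the filled points. The median is highest for hydrocarbon completion (5.61) and lowest for yolk and storage proteins (-2.82), and most open points lie on the fat body side, where more nuclei were counted.

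Lengthening of fatty acids and their conversion to hydrocarbon were among the most one-sided groups. Of 18 tested elongation genes 9 passed in both clusters, and 8 of these were higher in oenocytes and 0 in fat body (limma; also 0 at an unadjusted p under 0.05), with a median of 3.04. Another 5 passed through oenocytes alone. Summed over the list the level was 95.9 and 91.0 in oenocytes and 7.07 and 7.26 in fat body. eloF, the elongase for female long-chain hydrocarbons, was at 23.7 and 20.4 against 0.323 and 0.309 (log2 5.91). CG30008, CG16904 and CG6660 of the elongase family had log2 differences of 6.34, 5.31 and 5.44. The enzymes that complete the elongation cycle differed less than these, spidey, a ketoacyl reductase, by 2.66, Hacd1 by 1.20 and Sc2 by 0.90. Not every elongase separated the clusters, since bond, Baldspot and CG5326 did not pass the test.

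In the hydrocarbon completion list 6 of 10 members passed in both clusters, and all 6 were higher in oenocytes and 0 in fat body (limma; also 0 at an unadjusted p under 0.05), with a median of 5.61. Cyp4g1, the cytochrome P450 that forms hydrocarbons from aldehydes, was at 71.4 and 62.4 in oenocytes and 3.85 and 3.49 in fat body (log2 4.17 ± 0.09 SE, adjusted p = 4.0e-10). Its electron donor Cpr, the P450 reductase, was at 12.2 and 11.0 against 2.20 and 2.15 (log2 2.39). FarO, a fatty acyl-CoA reductase of oenocytes, was at 7.88 and 6.90 against 0.130 in both (log2 5.37). The tested member that did not differ past the threshold was wat, a reductase known from the trachea.

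The desaturases, which place double bonds, split like the synthases. Fad2, the desaturase that makes female dienes, was at 18.2 and 15.6 in oenocytes and 0.326 and 0.305 in fat body (log2 5.53), and CG15531 at 3.59 and 2.73 against 0.0604 and 0.0597 (log2 4.86). Desat1, the general Δ9 desaturase, was the one member higher in fat body, at 16.3 and 17.4 against 9.11 and 10.4 (log2 -0.79 ± 0.08 SE, adjusted p = 3.5e-05). Desat1 and FASN1 shared this pattern across the tissue: of the 26 clusters in the fed libraries the fat body had the highest level of both and the oenocytes the next highest.

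Lipoprotein genes divided between the carrier on one side and a receptor on each. apolpp, the apolipoprotein of lipophorin, was at 400 and 386 in fat body and 15.9 and 5.47 in oenocytes (log2 -5.39 ± 0.37 SE, adjusted p = 1.4e-06). In fed library 1, 77.2% of the oenocyte apolpp UMIs lay in 1 nucleus, and without it and similar nuclei the difference was -6.41. In fed library 2, 56.7% lay in another nucleus, which was kept there. Apoltp, the lipid transfer particle that loads lipophorin, was at 18.6 and 17.6 against 1.06 and 0.451 (log2 -4.60, and -5.75 without those nuclei), and Mtp, which lipidates apolipoproteins in the endoplasmic reticulum, at 0.770 and 0.856 against 0.175 and 0.0845 (log2 -2.31). The 3 genes of the export route were thus higher in fat body in both libraries. Of these, Apoltp and Mtp passed the filter through the fat body alone, which favoured this direction. Of the 20 tested genes of the list 8 passed in both clusters, 2 of them higher in oenocytes and 2 in fat body. Those counts were close to the shares over all such genes.

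The 2 lipophorin receptors, which bind the particle at the surface of cells that take up its lipid, went opposite ways. LpR1 was at 126 and 108 in oenocytes and 0.260 and 0.249 in fat body (log2 8.59 ± 0.11 SE, adjusted p = 9.7e-12), a 461-fold difference of means. LpR2 was at 3.26 and 4.79 in oenocytes and 103 and 103 in fat body (log2 -4.69 ± 0.23 SE, adjusted p = 1.4e-07), a 25.6-fold difference the other way, and 47.1% of the oenocyte LpR2 UMIs of fed library 2 lay in 1 nucleus. The genes stand side by side on chromosome 3R, both on the minus strand: LpR1 spans 25741348 to 25763105 and LpR2 25698727 to 25740465, with 882 bases and no gene between them. mgl, which encodes the related receptor megalin, was higher in oenocytes (5.88 and 12.9 against 1.73 and 1.57; log2 2.37), but 65.1% and 55.6% of its oenocyte UMIs came from 1 nucleus in each library. The yolk protein genes Yp1, Yp2 and Yp3, made by female fat body, were all higher there, by 3.15, 2.32 and 2.82 on the log2 scale.

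**Figure D3:**
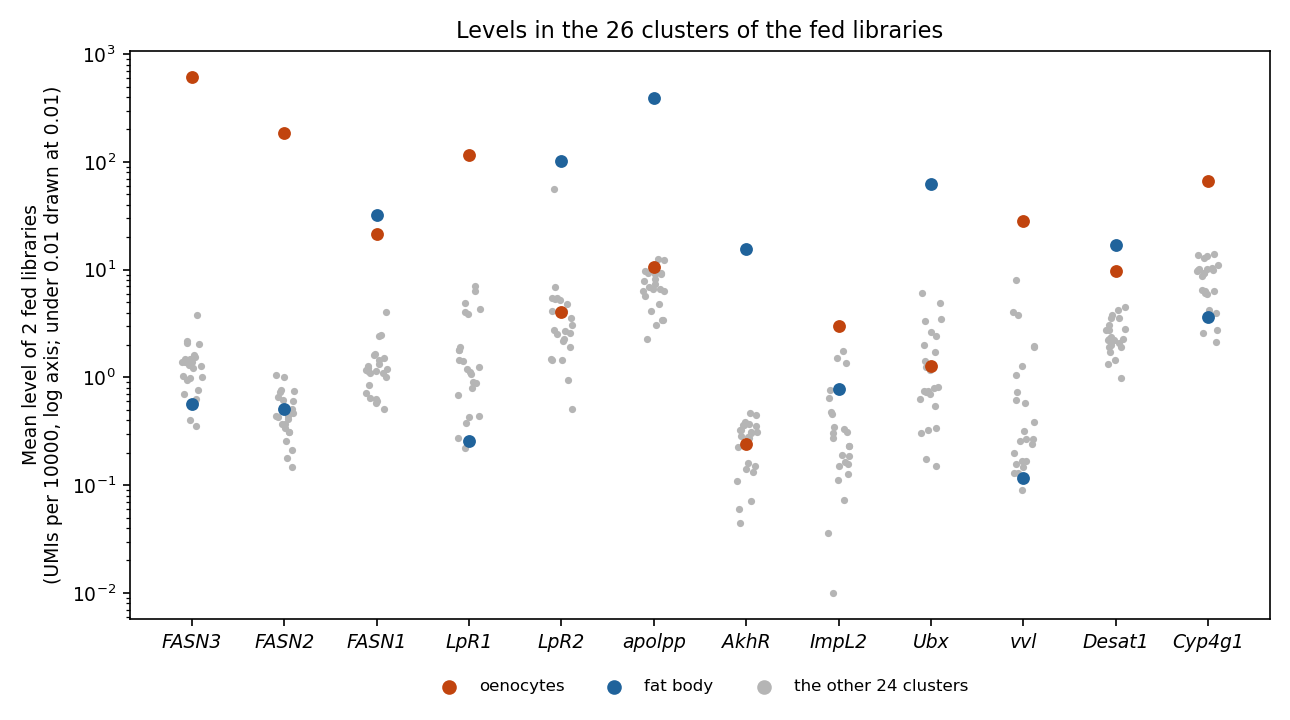
Mean level over the 2 fed libraries of 12 genes in each of the 26 clusters, in UMIs per 10000 on a log axis, with oenocytes and fat body in color and the other 24 clusters in gray. FASN3, FASN2, LpR1 and vvl are highest in oenocytes and LpR2, apolpp, AkhR and Ubx in fat body, with the hemocyte cluster next for LpR2 at 56.1, and the lower of the pair lies among the gray points for most genes, as for FASN3 in fat body at 0.563.

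The low levels on the other side of these pairs were close to those of unrelated cells. FASN3 in fat body (mean 0.563) ranked 24 of the 26 clusters and LpR1 (0.254) ranked 25, while the oenocyte level of LpR2 (4.02) and of AkhR (0.240) ranked 11 and 17. After every nucleus was thinned to 1000 UMIs, FASN3 was detected in 100% and 100% of oenocyte nuclei, in 7.84% and 5.45% of fat body nuclei and in 18.95% and 16.8% of flight muscle nuclei, which should lack it. AkhR was detected in 75.4% and 74.9% of fat body nuclei, in 2.70% and 4.17% of oenocyte nuclei and in 2.16% and 2.90% of flight muscle nuclei. FASN3 in fat body and AkhR in oenocytes were therefore read as background. FASN1 was detected in 87.4% and 86.1% of thinned oenocyte nuclei and 85.8% and 85.0% of fat body nuclei, against 10.9% and 9.42% of flight muscle nuclei. The thinning left out 0 and 1 oenocyte nuclei, 3 and 0 fat body nuclei and 839 and 1081 flight muscle nuclei, whose median was 1079 and 1047 UMIs. Without it, FASN3 was detected in 25.9% and 17.5% of fat body nuclei and 22.5% and 18.4% of flight muscle nuclei, and AkhR in 3.60% and 5.48% of oenocyte nuclei and 97.0% and 95.3% of fat body nuclei.

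Enzymes of triacylglycerol and phospholipid synthesis went both ways. mdy, the diacylglycerol acyltransferase that completes triacylglycerol, was at 9.67 and 9.99 in fat body and 0.429 and 0.366 in oenocytes (log2 -4.47 ± 0.23 SE, adjusted p = 1.7e-07). mino, a glycerol-3-phosphate acyltransferase of mitochondria, was lower in oenocytes by a log2 difference of -4.10, and Gpdh1, which makes glycerol-3-phosphate, by -3.33. In the opposite direction, bbc, which joins the head group in phosphatidylcholine and phosphatidylethanolamine synthesis, was at 15.9 and 15 in oenocytes and 0.863 and 0.793 in fat body (log2 4.14). LPCAT, a lysophospholipid acyltransferase, and Gpat4, another glycerol-3-phosphate acyltransferase, were also higher in oenocytes (log2 2.63 and 1.92). Of 21 tested genes of the list 12 passed in both clusters, 6 of them higher in oenocytes and 3 in fat body, with a median of 0.77. The list of fatty acid activation and binding was divided as well, with 9 of 13 genes passing in both clusters, 4 of them higher in oenocytes and 2 in fat body. Its members included the acyl-CoA synthetases pdgy (log2 2.42) and bgm (log2 -3.57).

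Of 16 tested genes of lipid droplets and lipolysis, 7 passed in both clusters, 4 of them higher in fat body and 1 in oenocytes, with a median of -0.93. Lsd-1, the perilipin that opens droplets to lipases, was at 11.9 and 11.1 in fat body and 0.493 and 0.0282 in oenocytes (log2 -5.80 ± 0.62 SE). Jabba, a droplet protein that holds histones, was at 21.4 and 21.0 against 0.811 and 1.32 (log2 -4.29). Lsd-2, the perilipin that guards droplets, was at 72.1 and 69.9 against 16.2 and 12.5 (log2 -2.31), so oenocytes kept a higher fraction of the fat body level for Lsd-2 than for Lsd-1. The lipases did not all go the same way. Lip4 and CG5162, predicted lipases, were lower in oenocytes by log2 differences of -3.87 and -2.97. bmm, the main triacylglycerol lipase (the fly ATGL), was at 4.51 and 3.44 in oenocytes and 3.76 and 3.86 in fat body, with a difference of 0.05 ± 0.13 SE (adjusted p = 0.85). On mean deposited values bmm passed the threshold as higher in oenocytes (adjusted p = 0.0028). Hsl, hormone-sensitive lipase, was at 0.0795 and 0.141 against 0.181 and 0.182 and did not pass the test. CG17292, another predicted lipase, was the member higher in oenocytes, at 8.79 and 8.14 against 1.11 and 0.909 (log2 3.01).

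**Figure D4:**
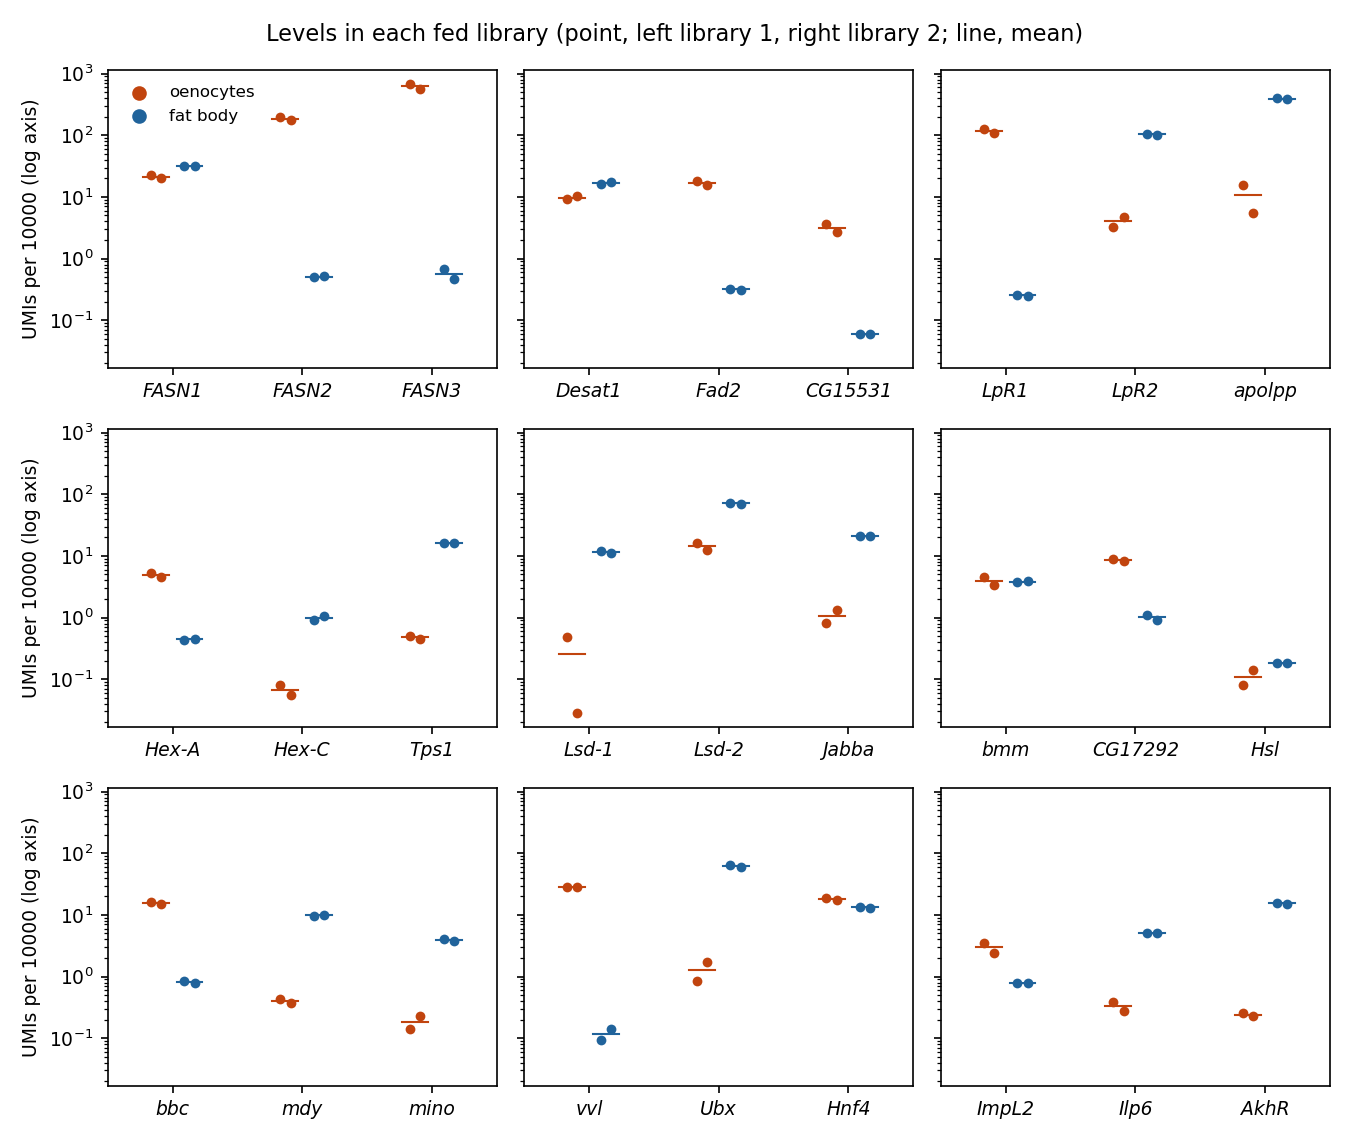
Levels in each fed library of 27 genes in 9 panels, in UMIs per 10000 on a log axis that all panels share, with 1 point per library and a line at the mean (oenocytes in red, fat body in blue). LpR1 and LpR2 trade places between the clusters, as do Hex-A and Hex-C, whereas the points of bmm overlap (4.51 and 3.44 against 3.76 and 3.86).

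For the breakdown of fatty acids in mitochondria, 10 of 23 tested genes passed in both clusters, and 7 of these were higher in fat body and 2 in oenocytes (median -0.86). whd, the carnitine palmitoyltransferase that admits fatty acids to mitochondria, was at 8.96 and 8.75 in fat body and 0.922 and 0.733 in oenocytes (log2 -3.35, adjusted p = 4.3e-07). Mcad, medium-chain acyl-CoA dehydrogenase, and the thiolase yip2 had log2 differences of -2.48 and -2.59. In the peroxisome list 10 of 27 genes passed in both clusters, with 2 higher in each, a share of 20% that is near the background. One of those higher in oenocytes was Cat, catalase, at 11.2 and 10.8 in oenocytes and 0.972 and 0.979 in fat body (log2 3.43). Of 3 genes of ketone body and mevalonate metabolism that passed in both clusters 2 were higher in oenocytes and 0 in fat body (limma; also 0 at an unadjusted p under 0.05). Hmgs, HMG-CoA synthase, was at 5.83 and 5.64 against 0.993 and 0.905 (log2 2.53) and SCOT, which uses ketone bodies, at 0.540 and 0.535 against 0.202 and 0.161 (log2 1.35).

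Carbohydrate genes were mostly higher in fat body, with an exchange of hexokinases. Of 19 glycolysis genes 15 passed in both clusters, 10 of them higher in fat body and 2 in oenocytes. Of 19 genes of gluconeogenesis, glycogen and trehalose 8 passed in both, 5 of them higher in fat body and 1 in oenocytes. Tps1, which makes trehalose from glucose, was at 16.2 and 16.05 in fat body and 0.509 and 0.451 in oenocytes (log2 -4.93 ± 0.27 SE, adjusted p = 3.1e-07). fbp, fructose-1,6-bisphosphatase, differed by -4.45 and UGP, which makes UDP-glucose, by -4.32. Hex-A, a hexokinase, was at 5.24 and 4.54 in oenocytes and 0.432 and 0.456 in fat body (log2 3.32). Hex-C, the hexokinase of the fat body, was at 0.0795 and 0.0564 in oenocytes and 0.930 and 1.07 in fat body (log2 -3.16). The other glycolytic gene higher in oenocytes was Pgk, phosphoglycerate kinase (log2 1.57), and Ldh, lactate dehydrogenase, was lower (log2 -2.60).

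Most tested genes of amino acid, one-carbon and purine metabolism passed the filter through the fat body alone. Of 15 tested genes of the methionine cycle and one-carbon metabolism 4 passed in both clusters, 2 of them higher in fat body and 0 in oenocytes (limma; also 0 at an unadjusted p under 0.05). Sam-S, which makes S-adenosylmethionine, was at 8.41 and 7.95 in fat body and 1.22 and 1.13 in oenocytes (log2 -2.75). For amino acid breakdown 8 of 24 passed in both clusters, with 2 higher in each. Hn, phenylalanine hydroxylase, had a log2 difference of -4.09 and v, tryptophan dioxygenase, of -3.38. The members higher in oenocytes were slgA (log2 2.02) and P5CDh1 (log2 2.31), the consecutive enzymes that turn proline into glutamate. In the purine list 4 of 16 genes passed in both clusters, 2 of them higher in fat body and 0 in oenocytes (limma; also 0 at an unadjusted p under 0.05). Prat2, the first enzyme of purine synthesis, had no UMI in oenocytes and 1.71 and 1.93 in fat body, at least 59.7-fold lower in oenocytes with the same floor of 3 UMIs. Paics and Gart, later steps of the same route, differed by -3.24 and -3.17.

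Of 17 iron and metal genes 7 passed in both clusters, and 4 of these were higher in fat body and 2 in oenocytes. Higher in fat body were MtnA, a metallothionein (log2 -2.86), and Fer1HCH, ferritin heavy chain (log2 -1.98), and higher in oenocytes was the zinc transporter ZnT63C (log2 1.87). Of 55 cytochrome P450 genes 7 passed in both clusters, 3 of them higher in oenocytes and 2 in fat body, and 48 passed through the fat body alone. Their summed level was higher in oenocytes (78.1 and 70.1 against 30.2 and 29.8). Cyp4g1 alone supplied 71.4 and 62.4 of those sums. Of 19 glutathione transferases 4 passed in both clusters, 2 of them higher in fat body and 1 in oenocytes, GstT4, at 6.83 and 8.51 against 4.71 and 5.34 (log2 0.60). None of the 12 tested UDP-glycosyltransferases passed in both clusters. In the humoral immunity list 10 of 35 genes did, with 3 higher in each cluster. The NF-kB factors of the Toll route went opposite ways, Dif at 7.54 and 7.40 in fat body and 1.21 and 1.10 in oenocytes (log2 -2.65), and dl at 0.809 and 0.912 in fat body and 3.16 and 3.63 in oenocytes (log2 1.92). The receptors did too, with Tl higher in fat body (log2 -2.59) and PGRP-LC, the receptor of the Imd route, in oenocytes (log2 1.42).

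Of 34 hormones, growth signals and their receptors 12 passed in both clusters, 6 of them higher in fat body and 2 in oenocytes (median -0.65). Another 22 passed through the fat body alone, among them CCHa2, daw and Ilp6. CCHa2, a nutrient-responsive peptide, was at 6.52 and 6.84 in fat body and 0.0636 and 0.225 in oenocytes (log2 -5.25). daw, an activin-like ligand, was at 9.24 and 9.26 against 0.572 and 0.113 (log2 -4.87). Ilp6, the insulin-like peptide of the fat body, was at 5.11 and 5.07 against 0.381 and 0.282 (log2 -3.76). These 3 ligands were more than 10 times higher in fat body in each library. Of the insulin route, InR, the insulin receptor, was at 14.3 and 13.5 in fat body and 7.87 and 7.10 in oenocytes (log2 -0.89), and foxo at 14.9 and 14.7 against 8.92 and 8.48 (log2 -0.77). Thor, the fly 4E-BP and a target of foxo, was at 10.7 and 11.2 against 1.73 and 1.21 (log2 -2.87).

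Among the signals higher in oenocytes were ImpL2 and bnl. ImpL2, a secreted protein that binds insulin-like peptides, was at 3.53 and 2.42 in oenocytes and 0.785 and 0.775 in fat body (log2 1.84 ± 0.19 SE, adjusted p = 3.1e-05), a 3.82-fold difference of means. Of the 26 clusters the oenocytes had the highest ImpL2 level and the fat body the fifth. At 1000 UMIs per nucleus ImpL2 was detected in 25.2% and 16.7% of oenocyte nuclei, 5.92% and 7.87% of fat body nuclei and 2.48% and 1.98% of flight muscle nuclei, and without thinning in 71.2% and 56.2%, 19.3% and 19.97%, and 2.28% and 2.35%. bnl, the fly fibroblast growth factor, was at 8.30 and 9.13 against 1.66 and 1.52 (log2 2.42).

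Of 57 transcription factors 40 passed in both clusters, of which 16 were higher in oenocytes (40%) and 11 in fat body (27.5%). Both are above the shares over all such genes, but the list was chosen with earlier results of these data known. The excess was therefore not read as a result. vvl, a POU-domain factor, was at 28.1 and 28.2 in oenocytes and 0.0936 and 0.140 in fat body (log2 7.41 ± 0.15 SE, adjusted p = 4.0e-10). mirr of the Iroquois family (log2 5.91) and salm, the spalt major gene that specifies oenocytes in the embryo (log2 5.67), followed. In fat body, sug, a sugar-responsive factor, was at 23.2 and 23.2 against 0.493 and 0.620 (log2 -5.27), and ap, a LIM-homeodomain factor, at 11.4 and 11.1 against 0.366 and 0.254 (log2 -4.99, and -5.80 without nuclei that held RNA of another type). The GATA factor srp, which specifies fat body in the embryo, was at 3.59 and 3.86 against 0.286 and 0.986 (log2 -2.68, and -4.46 without those nuclei). The values of the clusters did not overlap for any of these factors, but they were named for their differences, so this adds no support. Metabolic regulators known from the liver were present in both: Hnf4 at 19.1 and 17.5 in oenocytes and 13.5 and 12.9 in fat body (log2 0.47), svp at 19.6 and 18.9 against 8.50 and 9.04 (log2 1.13), and Mondo, the sugar sensor, at 3.21 and 2.93 against 10.1 and 9.75 (log2 -1.68).

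The groups of ribosomal proteins, oxidative phosphorylation and the proton pump held few genes that differed, unlike the secretory pathway. None of 83 cytosolic ribosomal protein genes passed the test in either direction (limma; 82 passed in both clusters, and at an unadjusted p under 0.05, 2 were higher in fat body and 0 in oenocytes), and their summed level was 294 and 296 in oenocytes and 288 and 294 in fat body. Of 52 oxidative phosphorylation genes that passed in both, 4 were higher in fat body and 1 in oenocytes, and of 12 genes of the vacuolar proton pump 1 was higher in oenocytes and 0 in fat body (limma; also 0 at an unadjusted p under 0.05). In the secretory pathway 25 of 37 genes passed in both, with a median of 0.80. Of these, 11 were higher in oenocytes (44%, against 26.6% over all such genes). In fat body 0 were higher (limma, also 0 at an unadjusted p under 0.05). Hsc70-3, the chaperone BiP of the endoplasmic reticulum, was at 11.3 and 11.1 in oenocytes and 4.46 and 4.23 in fat body (log2 1.36). Tango1, which organizes exit sites of the endoplasmic reticulum, and the coat GTPase Sar1 differed by 1.04 and 0.90. CrebA, a factor that activates secretory genes, was at 19.4 and 18.4 against 4.48 and 4.87 (log2 2.00), and Xbp1, of the unfolded protein response, at 4.59 and 3.80 against 2.10 and 2.05 (log2 0.99).

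The fat body cluster held nuclei of 2 kinds, which bears on what its mean stands for. The split was chosen after the values were seen and is a description without a test. Among fat body nuclei of at least 2000 UMIs, Ubx was detected in 520 of 697 (74.6%) in fed library 1 and 466 of 626 (74.4%) in fed library 2. LpR2 was detected in 97.7% and 98.1% of the nuclei with Ubx, at a median of 124 and 128 UMIs per 10000 of the nucleus, and in 18.1% and 19.4% of those without Ubx, where its median was 0. The nuclei without Ubx had somewhat fewer UMIs, with medians of 3565 and 3564.5 against 4335 and 4225. In the 4 starved libraries the share with Ubx was 69.4% to 74.1%.

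**Figure D5:**
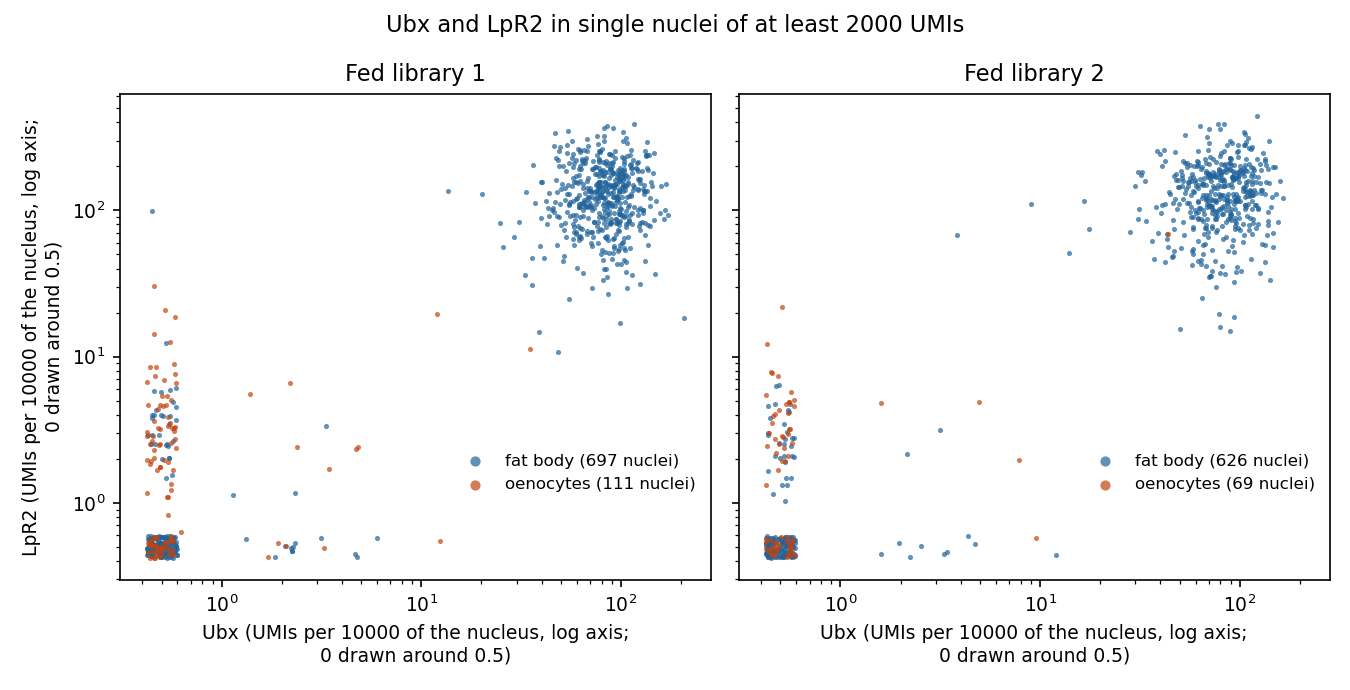
Ubx (horizontal) and LpR2 (vertical) in single nuclei of at least 2000 UMIs, in UMIs per 10000 of the nucleus on log axes, 1 panel per fed library, with fat body in blue and oenocytes in red. Most fat body nuclei lie at high values of both genes and a separate group lies where both are at 0, with the oenocytes mostly along the edge where Ubx is at 0.

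The 2 groups of fat body nuclei also differed in other genes of the comparison. The homeobox gene hth was at 102.1 and 102.4 in nuclei without Ubx and 4.86 and 3.86 in nuclei with it, and dsb at 35.7 and 35.1 against 1.36 and 0.931. GstT4 ran the other way, at 0.159 and 0.104 without Ubx and 6.13 and 7.13 with it, the latter near the oenocyte level of 6.83 and 8.51. FASN1 was at 20.3 and 19.3 in nuclei without Ubx, close to oenocytes (22.4 and 20.2), and at 35.8 and 36.0 in nuclei with it, so in neither library did the nuclei without Ubx exceed the oenocytes. apolpp was higher in nuclei without Ubx (634 and 604 against 331 and 318), and AkhR was alike (17.0 and 16.9 against 15.6 and 14.9). ImpL2 was at 1.92 and 1.72 without Ubx and 0.447 and 0.482 with it, both below oenocytes. Of the 879 genes higher in oenocytes, 872 kept that direction in both libraries against each group, as did 1543 of the 1618 higher in fat body. Against the nuclei without Ubx, 3 of the 879 and 20 of the 1618 went the opposite way in both libraries. Among genes named by rule these were LpR2 and FASN1, which were lower in nuclei without Ubx than in oenocytes, and Ubx itself, for which the split fixed this. Exceptions in 1 library only, or against the nuclei with Ubx, were not looked up by name. For LpR2 the values were 0.929 and 0.607 against 3.26 and 4.79.

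A few oenocyte nuclei held RNA of other types. In fed library 1 a nucleus of 15910 UMIs had FASN3 at 140 and apolpp at 486 per 10000, and it held 773 of the 1001 apolpp UMIs of the oenocytes there. Another nucleus of that library held 16 of the 31 Lsd-1 UMIs and was kept. In fed library 2 a nucleus of 14112 UMIs had FASN3 at 168 and the eggshell gene Cp18 at 895, and it held 96.5% of the Cp18 UMIs of those oenocytes. Without such nuclei, an alternative added after the data were seen, 2551 genes were called and 2473 of them were among the 2497. Cp18 and Cp16 then no longer differed past the threshold, their log2 differences going from 2.78 to 0.41 and from 2.11 to 0.03. The fed libraries had 27 barcodes in common, 8 of them from an oenocyte or fat body nucleus in either library and 0 from the same of these clusters in both.

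The starved libraries, which the fed contrast did not use except for the spread, gave the same sign in all 4 for 2128 of the 2497 called genes (85.2%), against 1406 of the 5255 genes not called (26.8%). The clusters of all 6 libraries came from the same clustering, so these signs are not an independent check. Genes not called include those near 0, whose sign can vary freely. In 27 called genes the sign was the opposite in all 4. For FASN1 the starved differences stayed negative, at -0.95 at day 2 and -0.34 at day 5. bmm, which did not differ past the threshold in fed flies, was at -2.40 at day 2 and -2.76 at day 5.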

How the data were processed

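The 2 fed and 4 starved libraries of sorted nuclei were used. Per the submitters' processing notes, reads were processed with Cell Ranger 6.1.1 and Seurat on build BDGP6, and per the study's methods the libraries were aggregated at equal read depth. The deposited matrix holds natural log values that the authors made per nucleus and gene; the exact step is not given in the sources used here. The values were the natural log of 1 plus 10000 times the share of a nucleus's UMIs, times nuclei per UMI of the gene, and from this UMIs were worked back (99.988% whole within 0.05). Nuclei had 499 to 24995 UMIs, which limits low genes. No doublet caller was run here, and the methods name none. Clusters and their names are the authors' annotation.

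UMIs were summed per library and cluster for all 12 profiles and tested as log2(UMIs per 10000 + 0.05) with limma 3.58.1 in R 4.3.3 (library as a block, mean-variance trend on, robust option off, two-sided, Benjamini-Hochberg over 7752 genes). The block is the reaction from which both clusters of a library came. A gene needed 10 nuclei with a UMI in both fed libraries in either cluster. On simulated data for this comparison over 7752 genes, 39 of 100 genes set to a log2 difference of 1 and 97 of 100 set to 2 were called. Named genes were the 12 largest called differences each way with at least 100 UMIs in the higher cluster, up to 4 called members of each list each way, the markers, and 16 genes of lipid handling and signalling listed by name. Another 22 genes, mostly list members, were named after their values were seen. The comparison, its members and the lists were chosen with earlier results of these data known. Alternatives changed the scale, pseudocount, filter, scaling, samples, block, nuclei and depth, and 4 were added after the data were seen. Gene overlaps came from the BDGP6 annotation. Intervals and floors cover counting error only. Levels are from 3′ tags and are not scaled by gene length. Python 3.11.15, numpy 2.4.6, scipy 1.17.1 and matplotlib 3.10.9 were used.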

Additional observations from a re-analysis of the deposited data

Results flagged for a closer look

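For 39 named genes the oenocyte against fat body difference was compared between fed and starved libraries by the interaction term of the same limma fit, and 11 of them differed past the adjusted threshold at day 2 or day 5 (8 at each). Of all 7752 tested genes 176 did at day 2 and 429 at day 5. The 39 were part of the named genes, many named for their fed differences, so their count was not read against these. For klg, Root and Tig, named for the largest fed differences, a smaller difference in starved libraries was favoured in advance. klg passed the filter through fed oenocytes alone and Root, Tig and daw through fed fat body alone, so their p-values share this limit. Differences are log2, oenocyte minus fat body, levels are UMIs per 10000 in the 2 libraries of a condition, and the levels were not tested between conditions within a cluster.

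The lipase gene bmm went from 0.05 in fed flies to -2.40 at day 2 (a change of -2.44, adjusted p = 0.00031) and -2.76 at day 5 (-2.81, adjusted p = 4.1e-05). Its fat body levels were 3.76 and 3.86 fed, 14.7 and 13.1 at day 2 and 21.7 and 23.4 at day 5, while all oenocyte levels of bmm lay between 2.38 and 4.51. ACC went from 0.55 to -0.29 (-0.85, adjusted p = 0.01) and -1.05 (-1.60, adjusted p = 0.00012), with fat body levels of 13.5 and 13.3 fed and 31.7 and 30.2 at day 5. Desat1 went from -0.79 to -1.75 at day 5 (-0.97, adjusted p = 0.0011), its fat body levels being 16.3 and 17.4 fed and 42.8 and 44.8 at day 5. FASN3 went from 9.99 to 10.60 (0.61, adjusted p = 0.026) and 10.63 (0.64, adjusted p = 0.0094), and its oenocyte levels were 682 and 557 fed and 976 and 959 at day 2.

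Of the signalling genes InR went from -0.89 to 0.15 at day 2 (1.04, adjusted p = 0.0024) and -0.40 at day 5 (0.49, adjusted p = 0.048). Thor went from -2.87 to -1.13 (1.75, adjusted p = 0.022) and 0.29 (3.16, adjusted p = 0.00036), with oenocyte levels of 1.73 and 1.21 fed and 5.55 and 7.70 at day 5 and fat body levels of 10.7 and 11.2 fed and 5.47 and 5.23 at day 5. daw went from -4.87 to -0.49 at day 2 (4.38, adjusted p = 0.035). Its oenocyte levels were 0.572 and 0.113 fed, 4.16 and 4.09 at day 2 and 0.112 and 1.37 at day 5. Its fat body levels were 9.24 and 9.26 fed, 5.69 and 5.92 at day 2 and 3.11 and 2.76 at day 5. Ilp6, foxo and ImpL2, which were among the 39, did not pass.

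klg went from 7.93 to 4.77 at day 2 (-3.16, adjusted p = 0.00044), with fat body levels of 0.0181 and 0.0421 fed and 0.531 and 0.633 at day 2. Sgp went from 7.29 to 8.88 at day 2 (1.58, adjusted p = 0.029). Its oenocyte levels were 17.2 and 15.6 fed, 61.9 and 69.5 at day 2 and 9.55 and 17.0 at day 5. Root went from -5.66 to -0.86 at day 5 (4.81, adjusted p = 0.00045), its fat body levels being 8.47 and 8.42 fed and 0.0489 and 0.0790 at day 5. Tig went from -5.81 to -3.84 at day 5 (1.98, adjusted p = 0.02), its fat body levels being 2.57 and 2.97 fed and 1.30 and 0.862 at day 5.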

How the results depend on the processing

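The count of 2497 genes stayed between 2107 (fat body reduced to the oenocyte depth) and 2641 (no replicate block, 931 higher in oenocytes and 1710 in fat body) under the settings that kept both fed libraries, and between 2314 (no mean-variance trend) and 2551 under the 4 added after the data were seen. With 1 fed library left out the count was 1608 to 1692, with 554 to 617 higher in oenocytes and 1054 to 1075 in fat body. The lowest values came from leaving out fed library 2, and the lone fed library was then assumed to vary like the others. The share of called genes higher in oenocytes was 32.7% to 41.3%, against 35.2%. Among named genes, signs turned for CG9747 (-0.033 without the tenth of nuclei with most UMIs, -0.017 with nuclei of 2000 to 8000 UMIs), Vml (-0.50 and -0.53) and Cp16 (-0.0029, first setting only), none of which passed the threshold there. Between 0 and 34 of 218 named genes lost their call in a setting, the most without fed library 2, and the medians of 27 lists kept their sign in 422 of 432 cases. The median over all genes was between -0.21 and -0.0048. Oenocyte depth limits genes under about 10 nuclei. A simulated log2 difference of 1 was called in 39 of 100 genes, under an assumed spread and with few genes changed.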

Other observations

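Some genes outside the metabolic lists separated the clusters as well. Amnionless, which with Cubn forms the receptor complex for protein uptake in nephrocytes, was at 2.10 and 2.03 UMIs per 10000 in oenocytes and 0.00604 and 0.00351 in fat body in the first and the second fed library (log2 5.27 ± 0.28 SE). Cubn was at 0.366 and 0.338 against 0.0181 and 0.0421 (log2 2.34). Both passed the filter through oenocytes alone, so no p-value is given. sns, a nephrocyte marker of the slit diaphragm, had no UMI in the oenocytes of either library. The remaining nephrocyte marker, kirre, went the other way, at 3.62 and 5.38 in oenocytes against 6.24 and 6.43 in fat body (log2 -0.52). The 4 nephrocyte markers summed to 6.09 and 7.75 in oenocytes and 6.27 and 6.47 in fat body, so the list did not separate the clusters.

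The stress-related nuclear RNA lncRNA:Hsromega was at 227 and 198 in oenocytes and 85.1 and 81.3 in fat body (log2 1.35 ± 0.06 SE, past the limma threshold).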
